A study of Homo sapiens with 6 samples.

Results

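Messenger RNA levels are described here for the enzymes that switch the integrated stress response on and off in HT1080 cells, a human fibrosarcoma line. They are the 4 eIF2 kinases EIF2AK1, EIF2AK2, EIF2AK3 and EIF2AK4, the phosphatase subunits PPP1R15A and PPP1R15B, and the EIF2AK4 regulators GCN1 and IMPACT. These 8 genes were chosen by symbol among 21619 entries of the deposited tables, with their fold changes between the 2 groups below already known. Their levels and fold changes are therefore given as a description, with no p-value. Each symbol stood on 1 entry, and 8 of 8 passed the filter on low counts.

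The 2 groups were PGK1_OE, HT1080 cells labelled as overexpressing the glycolytic enzyme PGK1, and WT, HT1080 cells labelled wild type, with 3 polyA RNA libraries each. All 6 libraries carry 1 batch label. The sources used here do not give the vector, its promoter, whether the overexpressing cells are a clone or a pool, or whether the WT cells hold an empty vector. The labels also do not say whether replicates were separate cultures, so p-values measure the spread between these libraries only, which may be technical.

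The translation factor eIF2 brings the initiator tRNA to the ribosome. Each of the kinases answers to its own kind of stress and phosphorylates the alpha subunit of eIF2, which slows the recycling of eIF2 by its exchange factor eIF2B. General translation then falls, while a small set of mRNAs, that of the transcription factor ATF4 among them, is translated more. PPP1R15A and PPP1R15B bring protein phosphatase 1 to eIF2 and reverse the mark. PPP1R15A (GADD34) is induced late in the response as a feedback, whereas PPP1R15B (CReP) is regarded as the constitutive subunit.

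Total counts per library ranged from 35851668 to 40538274 in PGK1_OE and from 34425162 to 37500947 in WT. PGK1 mRNA was 24.2-fold higher in PGK1_OE (12660 ± 597 normalised CPM, against 523 ± 4.03 CPM in WT, SD, n = 3 each), in the direction of the labels. Normalised CPM is the read count relative to the scaled library size. Of the 8 mesenchymal markers examined, 3 were under 3 CPM in both groups (NT5E, S100A4 and THY1), and the summed level of all 8 was 5988 to 6120 CPM in PGK1_OE and 3220 to 3717 CPM in WT. The epithelial genes EPCAM, KRT5 and KRT14 and the leukocyte gene PTPRC had 0 counts in every library. The summed level of the 5 epithelial markers was 0 CPM in PGK1_OE and 0.449 to 0.849 CPM in WT, and that of the 4 endothelial markers was 10.1 to 13.3 CPM in PGK1_OE and 4.13 to 5.38 CPM in WT. The 5 leukocyte markers summed to 220 to 248.6 CPM in PGK1_OE and 215 to 240 CPM in WT, nearly all of it CD68, which is uncertain because it shares 81.7% of its exonic bases with AC016876.2 on the same strand. The part of these shifts in the results below was not tested.

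The switch was unequal in its arms. mRNAs of the phosphatase subunits and of IMPACT stood lower in PGK1_OE, those of 3 kinases stood modestly higher, and those of EIF2AK1 and GCN1 overlapped between the groups. By the call used here, an edgeR quasi-likelihood adjusted p under 0.05, 3 of the 8 genes were called higher and 3 lower. Over all 14322 entries tested 71.2% were called, 35.4% higher and 35.8% lower. Normalised CPM of the groups did not overlap for 6 of the 8 genes, against 76.4% of all entries. Because the genes were chosen with this contrast in view, nothing is read from these counts.

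**Figure D1:**
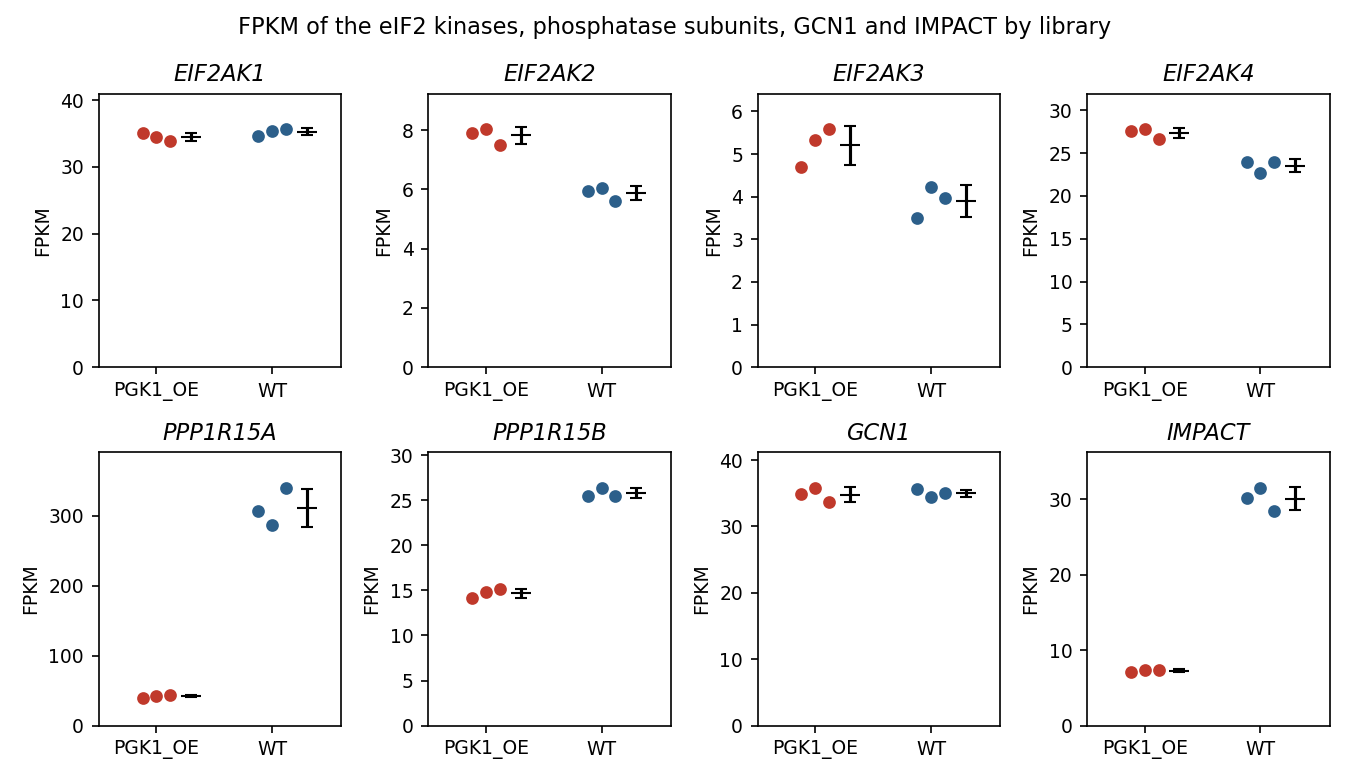
The authors' FPKM of each gene (vertical axis, starting at 0) is plotted for the 3 PGK1_OE libraries (red, left) and the 3 WT libraries (blue, right), with a bar for the mean and SD of each group. PPP1R15A, PPP1R15B and IMPACT lie lower in PGK1_OE, EIF2AK2, EIF2AK3 and EIF2AK4 lie higher, and EIF2AK1 and GCN1 overlap.

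PPP1R15A showed the largest difference of the 8. Its FPKM, the authors' level scaled to transcript length and library size, was 40.2, 42.1 and 43.2 in PGK1_OE replicates 1, 2 and 3, against 307, 287 and 340 in WT replicates 1, 2 and 3. Every PGK1_OE library thus lay far below every WT library. The raw counts behind these levels were 4896, 5275 and 4598 in PGK1_OE and 33063, 29082 and 31131 in WT. In normalised CPM the gene averaged 129 ± 5.54 in PGK1_OE and 849 ± 24.9 in WT (SD, n = 3 each), a log2 fold change of -2.72 (SE 0.04), so that WT was 6.60-fold higher. The size of this change was above that of 96.9% of all entries tested. On mean FPKM the log2 ratio was -2.90. Fewer cells with the mRNA and less of it per cell cannot be told apart in bulk RNA, here and below.

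PPP1R15B moved the same way by less. Its FPKM was 14.1, 14.8 and 15.1 in the PGK1_OE libraries, against 25.5, 26.4 and 25.4 in the WT libraries, with no overlap. It averaged 82.9 ± 3.49 CPM in PGK1_OE and 140 ± 2.55 CPM in WT, a log2 fold change of -0.76 (SE 0.04). The balance of the pair differed as a result. PPP1R15A made up 74.0%, 74.0% and 74.1% of the pair's summed FPKM in the PGK1_OE libraries and 92.3%, 91.6% and 93.0% in the WT libraries. The ratio of PPP1R15A to PPP1R15B FPKM was 2.85 ± 0.00625 in PGK1_OE and 12.1 ± 1.25 in WT (SD, n = 3 each). FPKM of PPP1R15A did not follow its CPM between libraries. WT replicate 3 had the highest FPKM (340) but 851 CPM, against 873 CPM and an FPKM of 307 in WT replicate 1. Shares and ratios from FPKM carry this difference, and its cause was not tested. PPP1R15A was still the more abundant of the 2 subunits in PGK1_OE.

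The promoters of this pair are shown because both genes stood lower together and each holds a match to an element bound by stress-related transcription factors. The sequences are RefSeq's on GRCh38.p14, each from 250 bases before to 50 bases after the annotated start. Capitals mark a cAMP response element, letters TGACGTCA, in PPP1R15A, and a composite element of the kind that ATF4 and C/EBP factors bind, letters TGATGNAA, in PPP1R15B. The PPP1R15A window is chr19:48872171-48872470 on the plus strand, and the PPP1R15B window is chr1:204411768-204412067 on the minus strand.
PPP1R15A: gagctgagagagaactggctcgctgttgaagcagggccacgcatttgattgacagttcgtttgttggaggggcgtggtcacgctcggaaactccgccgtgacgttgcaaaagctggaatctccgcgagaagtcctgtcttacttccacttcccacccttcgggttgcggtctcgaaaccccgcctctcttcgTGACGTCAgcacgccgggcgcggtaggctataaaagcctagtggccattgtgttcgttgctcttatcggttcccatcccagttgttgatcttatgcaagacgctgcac
PPP1R15B: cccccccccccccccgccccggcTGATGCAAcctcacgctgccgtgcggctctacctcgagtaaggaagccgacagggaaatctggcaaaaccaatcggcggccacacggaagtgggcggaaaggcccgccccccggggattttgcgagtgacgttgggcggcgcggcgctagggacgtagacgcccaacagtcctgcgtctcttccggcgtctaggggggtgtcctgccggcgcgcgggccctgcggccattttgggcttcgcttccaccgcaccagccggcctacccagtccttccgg

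The cAMP response element of PPP1R15A begins 58 bases before the start and reads the same on both strands. It was the only one of its kind in the 7 windows found in the RefSeq table, those of all genes described but EIF2AK1. The same letters stood in 1.85% of 35116 promoters and in 0 of 11 matched promoters of the ATF4 arm listed below. The composite element of PPP1R15B begins 227 bases before the start, and TGATGNAA on either strand stood in 3.62% of promoters, in 1 of the 7 windows and in 3 of 11 matched promoters of the ATF4 arm listed below. Neither match overlaps another motif searched. The other motifs searched on both strands were the CCAAT box (CCAAT), in 3 of 7 windows and 34.6% of promoters, and the GC box (GGGCGG), in 5 of 7 windows and 45.0% of promoters. Paired heat shock half-sites, letters GAANNTTC, were in 0 of 7 windows and 6.77% of promoters. A match describes letters in this window and does not show binding.

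The kinases were examined next, in the order of their numbers. EIF2AK1 (HRI) is the heme-regulated kinase and also relays mitochondrial stress. Its FPKM was 35.1, 34.5 and 33.8 in the PGK1_OE libraries and 34.7, 35.4 and 35.6 in the WT libraries, so the groups overlapped. It averaged 165 ± 2.17 CPM in PGK1_OE and 164 ± 2.50 CPM in WT, a log2 fold change of 0.01 (SE 0.04). With library totals in place of scaled library sizes the value was -0.03, and on the log2(FPKM + 1) scale it was -0.03, so its sign is not fixed.

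EIF2AK2 (PKR) is activated by double-stranded RNA and induced by interferon. Its FPKM was 7.92, 8.03 and 7.51 in the PGK1_OE libraries, all above the 5.96, 6.06 and 5.60 in the WT libraries. In CPM it averaged 84.0 ± 3.36 in PGK1_OE and 60.5 ± 1.41 in WT, 1.39-fold higher (log2 fold change 0.47, SE 0.05). Its promoter is shown because it holds the core of an interferon-stimulated response element, letters GAAANNGAA, in capitals. The window is chr2:37156931-37157230 on the minus strand of GRCh38.p14.
EIF2AK2: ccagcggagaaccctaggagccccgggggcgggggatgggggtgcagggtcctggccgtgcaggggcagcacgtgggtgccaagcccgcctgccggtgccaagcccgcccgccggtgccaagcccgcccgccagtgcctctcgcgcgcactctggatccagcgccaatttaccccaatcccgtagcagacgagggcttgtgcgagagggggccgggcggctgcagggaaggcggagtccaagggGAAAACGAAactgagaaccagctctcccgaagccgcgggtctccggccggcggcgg

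This element begins 6 bases before the start. The same letters stood on either strand in 8.11% of all promoters and in 1 of the 7 windows. They stood in 8 of 12 matched promoters of the interferon-stimulated genes listed below and in 1 of 11 of the ATF4 arm. The match overlaps no other motif searched.

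EIF2AK3 (PERK) sits in the membrane of the endoplasmic reticulum and senses unfolded proteins there. It was the least abundant of the 8 in both groups, with an FPKM of 4.70, 5.33 and 5.58 in the PGK1_OE libraries and 3.49, 4.22 and 3.98 in the WT libraries. The groups did not overlap, although PGK1_OE replicate 1 and WT replicate 2 came close. It averaged 25.6 ± 2.16 CPM in PGK1_OE and 18.7 ± 1.61 CPM in WT (log2 fold change 0.45, SE 0.09). Its coefficient of variation was 8.45% in PGK1_OE and 8.61% in WT, the widest of the 8 in each group.

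EIF2AK4 (GCN2) responds to amino acid shortage through uncharged tRNA and stalled ribosomes. Its FPKM was 27.6, 27.8 and 26.7 in the PGK1_OE libraries, all above the 23.98, 22.6 and 23.97 in the WT libraries. It averaged 163 ± 2.60 CPM in PGK1_OE and 134 ± 4.70 CPM in WT, 1.21-fold higher (log2 fold change 0.28, SE 0.04). This was the smallest of the differences whose groups did not overlap.

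EIF2AK4 works with partners, and these behaved differently. GCN1, the large ribosome-bound protein that EIF2AK4 needs for activation, had an FPKM of 34.9, 35.8 and 33.6 in the PGK1_OE libraries and 35.6, 34.5 and 35.0 in the WT libraries. These ranges overlapped, and the log2 fold change was 0.04 (SE 0.04, 330 ± 9.14 CPM in PGK1_OE and 321 ± 6.96 CPM in WT). With library totals the sign turned (-0.0083), as it did on the log2(FPKM + 1) scale (-0.0097). IMPACT, which in mouse cells competes with EIF2AK4 for GCN1 and so restrains the kinase, had an FPKM of 7.09, 7.39 and 7.40 in the PGK1_OE libraries, against 30.1, 31.5 and 28.5 in the WT libraries. Every PGK1_OE library lay below every WT library. In CPM it averaged 29.3 ± 1.41 in PGK1_OE and 117 ± 4.83 in WT, 3.99-fold higher in WT (log2 fold change -1.997, SE 0.05). The ratio of IMPACT to EIF2AK4 FPKM was 0.257, 0.266 and 0.277 in the PGK1_OE libraries and 1.26, 1.39 and 1.19 in the WT libraries. On FPKM, IMPACT mRNA was thus below that of the kinase in every PGK1_OE library and above it in every WT library. In CPM, which is not scaled to length, IMPACT was below the kinase in every library. The WT libraries held 116.5, 121.9 and 112.3 CPM of IMPACT, against 136.1, 129.0 and 137.9 CPM of EIF2AK4. The order of the 2 genes in WT therefore depends on the scaling to length.

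**Figure D2:**
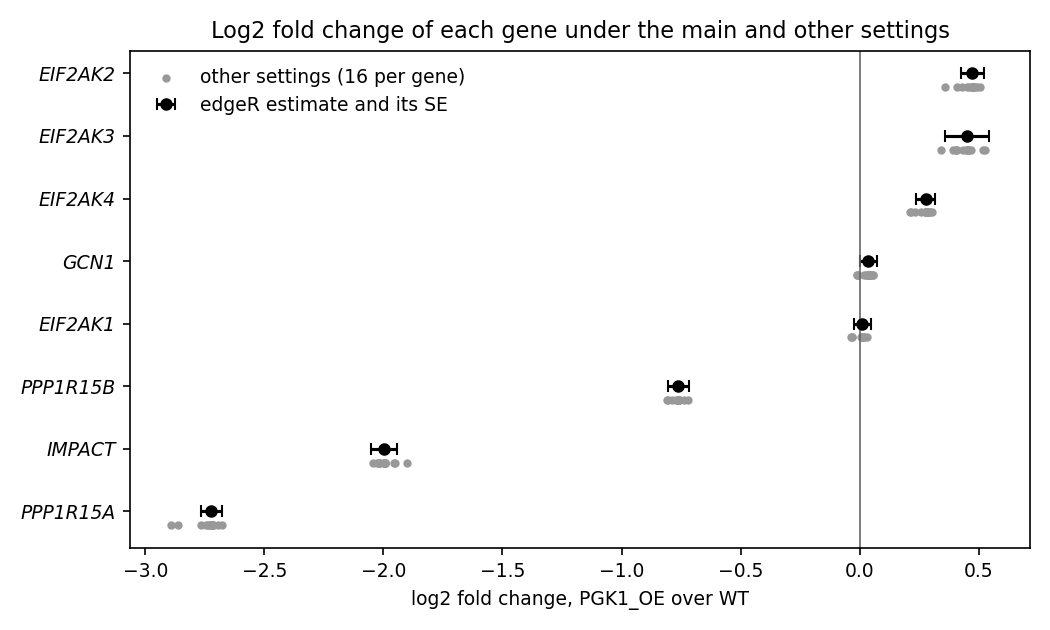
Log2 fold change of PGK1_OE over WT (horizontal axis) for each gene (rows), with the edgeR estimate and its SE in black and the values under 16 other settings in grey below it. PPP1R15A (-2.72), IMPACT (-1.997) and PPP1R15B (-0.76) lie left of 0 under all settings shown, while EIF2AK1 and GCN1 lie on both sides of it.

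The order of the levels per length was read from FPKM within each group. This order depends on the transcript lengths behind the FPKM, which the sources used here do not give. In PGK1_OE it ran PPP1R15A, GCN1, EIF2AK1, EIF2AK4, PPP1R15B, EIF2AK2, IMPACT and EIF2AK3, with means between 41.8 and 5.205. In WT it ran PPP1R15A, EIF2AK1, GCN1, IMPACT, PPP1R15B, EIF2AK4, EIF2AK2 and EIF2AK3, with means between 312 and 3.899. GCN1 and EIF2AK1 overlapped in each group, and no other neighbours in the order did. IMPACT was the seventh of the 8 in PGK1_OE and the fourth in WT.

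Among the kinases alone, EIF2AK1 and EIF2AK4 held most of the summed FPKM in both groups. Shares between genes depend on the transcript lengths behind the FPKM, which the sources used here do not give. EIF2AK1 held 46.1 ± 0.494% of the 4 kinases' summed FPKM in PGK1_OE and 51.4 ± 0.467% in WT. EIF2AK4 held 36.5 ± 0.248% in PGK1_OE and 34.3 ± 1.08% in WT. EIF2AK2 held 10.4 ± 0.212% in PGK1_OE and 8.57 ± 0.418% in WT, and EIF2AK3 held 6.96 ± 0.677% in PGK1_OE and 5.69 ± 0.528% in WT (SD, n = 3 each). The kinases' summed FPKM was 74.9 ± 1.11 in PGK1_OE and 68.6 ± 0.562 in WT. The summed FPKM of the phosphatase subunits was 56.5 ± 1.99 in PGK1_OE and 337 ± 26.4 in WT. On FPKM, kinase mRNA was therefore 1.39, 1.33 and 1.26 times phosphatase subunit mRNA in the PGK1_OE libraries. In the WT libraries it was 0.205, 0.218 and 0.189 times. These are ratios of mRNA levels, and neither protein nor phosphorylated eIF2 was measured here.

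**Figure D3:**
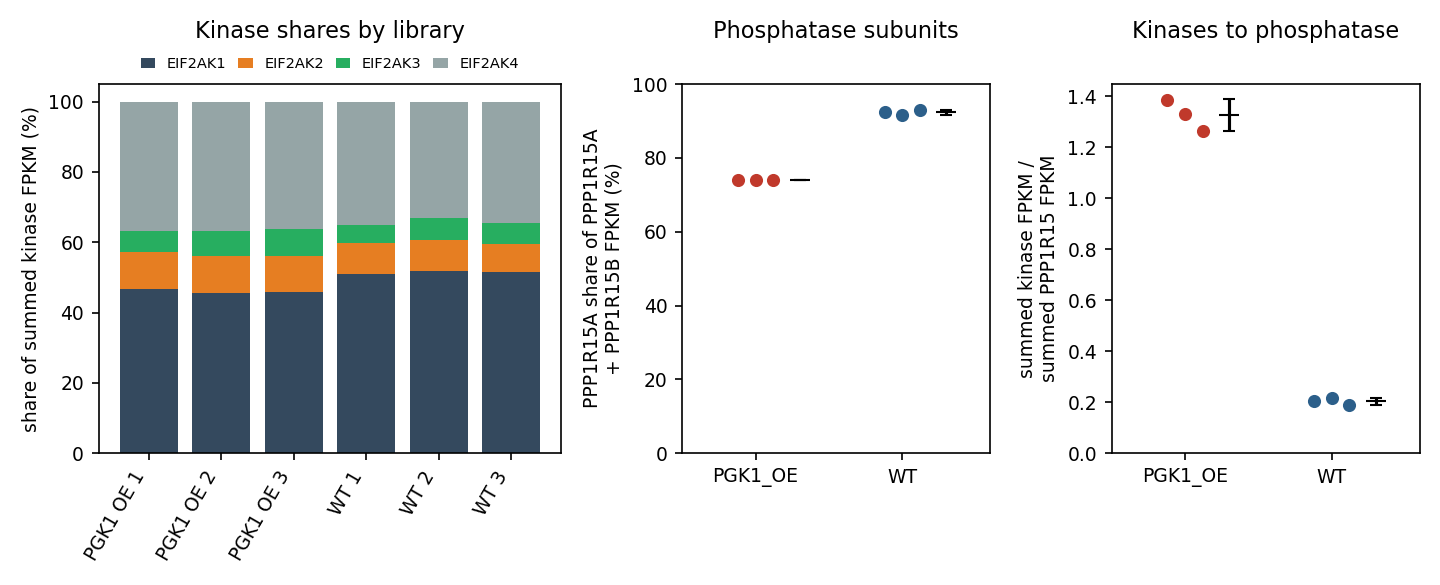
Left, the share of each kinase in the summed FPKM of the 4 kinases, stacked for each library. Middle, the share of PPP1R15A in the summed FPKM of PPP1R15A and PPP1R15B (74.0% in PGK1_OE, 92.3% in WT), and right, the ratio of summed kinase FPKM to summed PPP1R15 FPKM (1.33 in PGK1_OE, 0.204 in WT), with a point for each library and a bar for the mean and SD.

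The genes around the switch were taken from lists of pathway genes and counted with the edgeR call, beside the 71.2% called over all entries and their median log2 fold change of -0.02. These lists, like the 8 genes, were drawn up with earlier results of this contrast known. Their counts and adjusted p-values, which are adjusted over all entries tested, describe the libraries and are not independent evidence of a direction. The substrate came first. Of the 8 subunits of eIF2 and eIF2B, 7 fell and 1 rose, with a median of -0.37. EIF2S1, the alpha subunit that the kinases phosphorylate, averaged 279 ± 3.86 CPM in PGK1_OE and 343 ± 14.4 CPM in WT (log2 fold change -0.30, SE 0.04, edgeR adjusted p = 2.71e-05). EIF2S2, the beta subunit, showed the largest difference of the list at 233 ± 7.84 CPM in PGK1_OE and 605 ± 11.0 CPM in WT (-1.38, SE 0.04, edgeR adjusted p = 8.02e-11). The eIF2B subunits EIF2B1 (-0.57), EIF2B2 (-0.62) and EIF2B5 (-0.36) also fell. EIF2B4 rose (0.51, SE 0.06) and is named after its value was seen. Exons of EIF2S1, EIF2B1, EIF2B2, EIF2B4 and EIF2B5 share bases with opposite-strand genes, which leaves these values uncertain.

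The catalytic subunits of protein phosphatase 1, which PPP1R15A and PPP1R15B bring to eIF2, did not share a direction. PPP1CA rose to 156 ± 0.975 CPM in PGK1_OE, against 89.3 ± 4.70 CPM in WT (log2 fold change 0.81, SE 0.05, edgeR adjusted p = 1.98e-08). PPP1CC rose (0.32, SE 0.05), and PPP1CB fell (-0.50, SE 0.04), so 2 of 3 rose and 1 fell. PPP1CA and PPP1CB share exonic bases with other genes and are uncertain.

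Regulators of single kinases were mixed, with 3 of 11 rising, 4 falling and 4 not passing (median -0.00). DNAJC3, a co-chaperone that inhibits EIF2AK2 and EIF2AK3, rose (81.1 ± 1.34 CPM in PGK1_OE and 57.6 ± 1.85 CPM in WT, log2 fold change 0.49, SE 0.05, edgeR adjusted p = 1.58e-06). ADAR, which edits double-stranded RNA, rose by 0.48 (SE 0.04), and TARBP2, an inhibitor of EIF2AK2, by 0.63 (SE 0.07). PRKRA, an activator of EIF2AK2, stood at 39.9 ± 1.70 CPM in PGK1_OE and 36.5 ± 2.32 CPM in WT (0.13, SE 0.06, edgeR adjusted p = 0.0951), and passed without WT replicate 2 (edgeR adjusted p = 0.0206).

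DELE1, which carries the mitochondrial stress signal to EIF2AK1, fell to 51.6 ± 1.52 CPM in PGK1_OE, against 74.4 ± 3.00 CPM in WT (-0.53, SE 0.05, edgeR adjusted p = 2.03e-06). OMA1, the protease that cleaves DELE1, fell to 9.05 ± 1.33 CPM in PGK1_OE, against 12.3 ± 1.96 CPM in WT (-0.45, SE 0.15, edgeR adjusted p = 0.0166). It no longer passed without PGK1_OE replicate 1 (edgeR adjusted p = 0.078), PGK1_OE replicate 2 (0.0556) or WT replicate 2 (0.0883). HSPA5, the chaperone that holds EIF2AK3 inactive, differed little (1084 ± 10.4 CPM in PGK1_OE and 1197 ± 45.5 CPM in WT, -0.14, SE 0.04, edgeR adjusted p = 0.00405). Of the ribosomal stalk proteins that activate EIF2AK4, RPLP0 fell (-0.23, SE 0.03), while RPLP1 was -0.00 (SE 0.04) and RPLP2 0.11 (SE 0.05), neither past the threshold. RPLP2 was called higher without PGK1_OE replicate 2 (edgeR adjusted p = 0.0128) and by DESeq2 on all 6 libraries (adjusted p = 0.0364), and RPLP1 passed on the FPKM scales with a log2 fold change of up to 0.81. MAP3K20, a kinase that reports collided ribosomes, stood at 132 ± 4.42 CPM in PGK1_OE and 143 ± 13.8 CPM in WT (-0.11, SE 0.07, edgeR adjusted p = 0.155). It was called lower without WT replicate 2 (edgeR adjusted p = 0.00203) and with library totals on all 6 libraries (edgeR adjusted p = 0.0393). OMA1, PRKRA, TARBP2, MAP3K20 and RPLP2 share exonic bases with other genes and are uncertain.

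The transcripts listed as downstream of phosphorylated eIF2 had the lowest median of the pathway lists. In the ATF4 arm 12 of 13 genes fell and 1 rose (median log2 fold change -3.29). ATF4 mRNA, named after its value was seen, was among those that fell. It averaged 213 ± 7.94 CPM in PGK1_OE and 665 ± 7.50 CPM in WT (log2 fold change -1.64, SE 0.04). These are mRNA levels, and phosphorylated eIF2 was not measured here. DDIT3 (CHOP), a factor known to drive PPP1R15A transcription, averaged 9.52 ± 0.141 CPM in PGK1_OE and 93.1 ± 4.68 CPM in WT (-3.29, SE 0.06, edgeR adjusted p = 4.96e-12), and shares exonic bases with MARS on the opposite strand. ASNS (-4.94), ATF3 (-4.09) and TRIB3 (-3.29) had the other smallest p-values of the list, and ASNS shares 44.6% of its exonic bases with AC079781.5 on the same strand. ATF5, named after its value was seen, was the member that rose (1.53, SE 0.16), and its exons overlap NUP62. PPP1R15A itself is often counted among ATF4-dependent genes and lay above the median of this list.

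The other arms of the unfolded protein response, set beside EIF2AK3, were divided, with 7 of 12 genes rising and 4 falling (median 0.32). The sensor ERN1 fell to 12.1 ± 0.872 CPM in PGK1_OE, against 103 ± 3.77 CPM in WT (-3.09, SE 0.06). XBP1 (-2.10, SE 0.04) and HERPUD1 (-0.93, SE 0.04) fell too, and a link of their levels to ERN1 was not tested. The secreted factor MANF rose to 83.4 ± 0.994 CPM in PGK1_OE, against 22.1 ± 0.855 CPM in WT (1.91, SE 0.05). Interferon-stimulated genes, set beside EIF2AK2, rose in 12 of 15 tested cases and fell in 2 (median 1.06). IFIT1 rose to 11.1 ± 1.59 CPM in PGK1_OE, against 1.33 ± 0.131 CPM in WT (3.06, SE 0.17), and IFIT3 (1.31, SE 0.09) and OAS1 (2.13, SE 0.17) rose too. MX1 (-2.66, SE 0.41) and IFIH1 (-0.49, SE 0.12) fell and are named after their values were seen. Of 4 factors that can deliver initiator tRNA without eIF2, 3 fell, EIF2A (-0.22), EIF2D (-0.48) and DENR (-0.53), and MCTS1 did not pass (-0.00). OAS1, MX1 and EIF2A share exonic bases with a gene on the opposite strand.

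**Figure D4:**
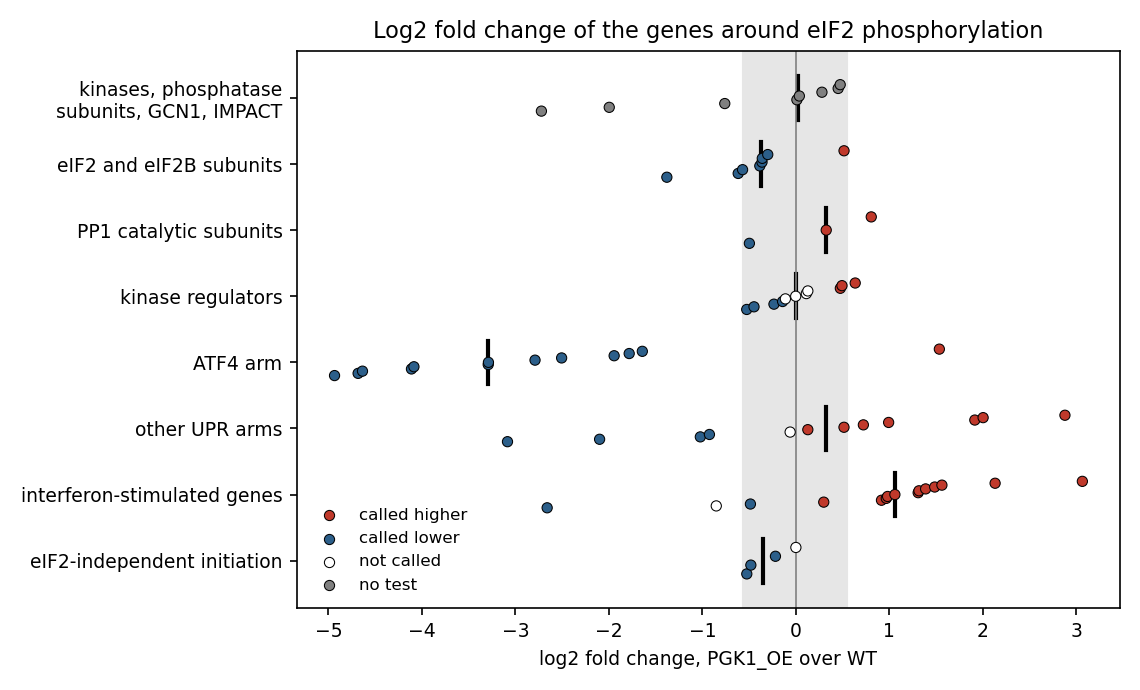
Log2 fold change of PGK1_OE over WT (horizontal axis) for each tested gene (points) of the lists (rows), with a black line for each list's median. Red, called higher, blue, called lower, white, not called. Grey points, labelled no test, are the 8 genes described, drawn here without their calls. The grey band holds the middle of all entries from -0.57 to 0.54. The ATF4 arm lies furthest left (median -3.29).

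Genes with the most similar profiles were found by Euclidean distance between log2 CPM values centred over the 6 libraries, among 10802 entries with a symbol. NUAK2, a kinase of the AMPK family, and the transcription factor CEBPG lay nearest to PPP1R15A (distances 0.140 and 0.145). PNO1, a ribosome assembly factor, and the seryl-tRNA synthetase SARS1 lay nearest to IMPACT (0.123 and 0.125). PCNX4 and TVP23B lay nearest to PPP1R15B (0.0441 and 0.0470), and TVP23B is uncertain because it has a close paralog, TVP23C. The nearest to EIF2AK2 were ZDHHC8 and NRAS (0.0392 and 0.0506), to EIF2AK3 VKORC1L1 and HECA (0.114 and 0.135), and to EIF2AK4 MCRS1 and ORC4 (0.0235 and 0.0252). DHX16 and ZDHHC7 lay nearest to EIF2AK1 (0.0204 and 0.0332), and ELF4 and RBMS1 nearest to GCN1 (0.0310 and 0.0324). The difference between the groups enters these distances. Many entries shared such a profile: Pearson r over the 6 libraries was above 0.95 with PPP1R15A for 2991 of the 10802 entries. The count was 2971 for IMPACT, 188 for EIF2AK3 and 1 for EIF2AK1.

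The positions of the 8 genes are on GENCODE 29, built on GRCh38, the same build as hg38. PPP1R15A lies on chromosome 19 from 48872392 to 48876057 on the plus strand and overlaps no annotated gene. PPP1R15B lies on chromosome 1 from 204403387 to 204411791, GCN1 on chromosome 12 from 120127203 to 120194710, and EIF2AK1 on chromosome 7 from 6022244 to 6059230, all on the minus strand. EIF2AK2 (37099210 to 37157065) and EIF2AK3 (88556741 to 88627576) lie on the minus strand of chromosome 2, and EIF2AK4 on the plus strand of chromosome 15 from 39934146 to 40035591. IMPACT lies on chromosome 18 from 24426616 to 24453535 on the plus strand and shares no exonic base with another gene, as also holds for PPP1R15B, EIF2AK4 and GCN1. EIF2AK1 shares 9.59% of its exonic bases with AIMP2 on the opposite strand, EIF2AK2 shares 3.73% with the pseudogene AC007899.1, and EIF2AK3 shares 14.4% with the antisense gene AC104134.1. The sources do not say whether counting used strand, so the values of these 3 kinases are uncertain. AIMP2 itself stood at 29.1 CPM in PGK1_OE and 56.1 CPM in WT. Of the 16 nearest tested protein-coding genes, 1 on each side of each gene, 5 rose, 8 fell and 3 did not pass. Over all entries tested 35.4% were called higher and 35.8% lower. Beside PPP1R15A, PLEKHA4 did not pass (-0.23, SE 0.23) and NUCB1 rose (0.53, SE 0.05). On the 2 sides of IMPACT, OSBPL1A, 28736 bases away, rose (0.25, SE 0.08), and ZNF521, as far as 608391 bases away, did not pass (0.24, SE 0.11). Beside PPP1R15B, PLEKHA6 fell (-1.36, SE 0.48, edgeR adjusted p = 0.0241) at a low level, with 0.282 CPM in PGK1_OE and 0.733 CPM in WT, and PIK3C2B rose (0.48, SE 0.17).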

How the data were processed

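PolyA RNA of HT1080 cells was sequenced in 3 PGK1_OE and 3 WT libraries, grouped by sample titles, and table columns were matched through sample descriptions. The submitters' processing notes name fastp, HISAT and hg38. Tool versions, how reads were counted, strand use, the gene annotation and the FPKM tool: not given in the sources used here. Raw counts per gene were deposited in one table, and FPKM, scaled by the authors to length and library size, in another.

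Counts were fitted in R 4.3.3 with edgeR 4.0.16: filterByExpr by group, TMM scaling, robust quasi-likelihood test with group as the only term, two-sided, with Benjamini-Hochberg adjustment over 14322 entries and a threshold of 0.05. The SE is the absolute log2 fold change over the square root of F. Chi-square per degree of freedom between libraries of a group was 7.93 to 15.2, so none was taken for a repeat of another. Genes with few counts have wider counting error. The fits were tested on simulated data in which far fewer genes changed than were called here and all genes shared a common dispersion. That test therefore does not show how the fits behave on these data.

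The genes described, the gene lists and the motifs were chosen with earlier results of these data known. Named are all 8 genes, PGK1, up to 4 genes per list with the smallest adjusted p, direct regulators or partners, and the 2 nearest profiles per gene whose average log2 CPM reached 2. IRF7 failed the low-count filter. One gene that the rule names is not reported here. Alternatives were RLE factors, library totals, PGK1 left out of scaling, other filters, DESeq2 1.42.0, limma 3.58.1 (voom, and log2 FPKM with pseudocounts of 1 and 0.1), a block for the replicate number, each library left out in turn, and a threshold of 0.01.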

Additional observations from a re-analysis of the deposited data

How the results depend on the processing

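PPP1R15A, PPP1R15B, IMPACT, EIF2AK2, EIF2AK3 and EIF2AK4 kept the direction of their log2 fold change under all 16 alternatives tried, with ranges of -2.89 to -2.68, -0.81 to -0.72, -2.04 to -1.90, 0.36 to 0.51, 0.34 to 0.53 and 0.21 to 0.30. Shifts by more than 1 SD between libraries were as follows. With library totals EIF2AK1 was -0.0347, EIF2AK4 0.23 and GCN1 -0.0083. On log2(FPKM + 1) EIF2AK1 was -0.0315, EIF2AK2 0.36, EIF2AK4 0.21, PPP1R15A -2.87, GCN1 -0.0097 and IMPACT -1.90. On log2(FPKM + 0.1) EIF2AK1 was -0.0323, EIF2AK2 0.41, EIF2AK4 0.22, PPP1R15A -2.89, PPP1R15B -0.81 and GCN1 -0.00999. With library totals all 8 values lay lower than in the main fit. That setting leaves out the scaling factors, which were 0.982 to 0.987 in PGK1_OE and 1.01 to 1.03 in WT. The cause of the shifts on the FPKM scales was not tested. On both FPKM scales 1 interferon-stimulated gene was called lower, in place of 2, because MX1 lay below the FPKM minimum of 1 and was not tested there, while IFIH1 was called lower on both. Every other list count stayed within 1.5 times under the alternatives. With the replicate block 9943 entries were called, against 10195 without it. Deviations of same-numbered libraries had correlations of -0.0134, -0.0129 and 0.0952 for replicates 1, 2 and 3. PGK1_OE replicate 3 correlated best with WT replicate 3, but PGK1_OE replicate 1 did so with WT replicate 2 (0.0468) and PGK1_OE replicate 2 with WT replicate 1 (0.0701). With 3 libraries per group, these values cannot decide whether same-numbered libraries share more than a number. ATF6, SEL1L and RIGI changed their call under 5, 3 and 6 of 17 alternatives. EIF2AK3, with 642 to 1044 counts per library, had the widest relative spread of the 8.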
